A study of Mus musculus with 24 samples.

Results

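The genes described here are those for the proteins of the cytosolic ribosome, in mouse embryonic stem cells with and without the Polycomb gene Eed. They were chosen by symbol (Rpl, Rplp, Rps or Rpsa with its number, pseudogenes and kinases left out) among the 23284 gene symbols of the deposited count table, with a mean of at least 50 CPM (counts relative to the library total, scaled to a common total) over the 24 libraries. The rule took 80 of the 83 symbols that matched, 48 of the large and 32 of the small ribosomal subunit. The level limit left out Rpl3l, Rpl39l and Rpl10l, at means of 2.51, 9.02 and 27.4 CPM. The members nearest above it were Rpl22l1, Rps27l and Rpl7l1, at 176, 188 and 239 CPM. The rule used only the mean level over all libraries and no difference between groups. All 80 members passed the filter on low counts.

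The study sequenced poly(A) RNA from C57BL/6 mouse embryonic stem cells and from the embryoid bodies (EBs, aggregates in which the cells begin to differentiate) that they form. Its title concerns the breakdown of PRC2, a histone methyltransferase of the Polycomb group with EED among its core subunits. The labels name 4 lines: f/f, the conditional Eed line without tamoxifen; KO, that line after Eed deletion by 4-hydroxytamoxifen (800 nM); KO+WT, KO cells with wild-type EED put back; and KO+N-KR, KO cells with a form of EED labelled N-KR, which the labels do not spell out. Each line was sampled in the state labelled 3i and as EBs of day 1 and day 2. Every one of these 12 groups had 2 libraries. The protocols give serum, LIF and embryonic fibroblast feeders for the stem cell culture. Sample titles, and not the genotype field, tell the rescue lines apart, since that field gives EED KO for both. Each line appears once in the design, and nothing in the labels says that its libraries came from separate cultures or clones. Only f/f was kept without tamoxifen, so that no comparison with f/f can tell the drug and the line's history from the genotype: these cannot be told apart. Eed itself is no check of the deletion in these counts, because reads of the whole gene were counted and the labels do not give the deleted exons.

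A ribosome is built from a single copy of nearly every one of these proteins, joined to ribosomal RNA in a large subunit that forms peptide bonds and a small subunit that reads the mRNA. The mRNAs of ribosomal proteins belong to the most abundant of a growing cell, and as a class they begin with a 5' terminal oligopyrimidine (5'TOP) run, a C followed by C and T letters, through which mTOR signalling and LARP1 set their translation and stability. Their transcription is known to respond to growth regulators such as MYC, and surplus proteins of the large subunit can stabilise p53.

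Promoter windows in RefSeq (GRCm38.p6, 250 bases before to 50 after each annotated start) were matched for 59 members, in 70 rows, against 13405 rows of 10539 tested genes. The motif searched for 5'TOP was a C followed by at least 4 letters that are C or T, on the gene's strand. It lay within 20 bases of the start in 70.0% of member windows and in 46.9% of all windows, and began exactly at the annotated start in 13 member windows (18.6%) against 2.45% of all. CCGGAAG, a core of ETS factor sites, was found on either strand in 35.7% of member windows and 15.4% of all. AAGATGG, a core of YY1 sites, was on either strand in 17.1% of member windows and 6.40% of all. GGGCGGG, a core of SP1 sites, was on either strand about as frequent in members (47.1%) as in all windows (45.2%). Matches can overlap: CCGGAAG can end in the letters that begin AAGATGG, and the reverse strand of each can share letters with a pyrimidine run. A match is a description of letters in the window. For 6 members the window is shown as 60 bases, 40 before the annotated start and 20 from it on, chosen from those whose RNA differed most between lines (Rpl13, Rpl22l1) or between states (Rpl22, Rps15a, Rpl12, Rpl7l1), with the pyrimidine runs within 20 bases of the start in capitals. Runs farther upstream stay in lower case.
Rpl13 (chr8:123102310-123102369, plus strand): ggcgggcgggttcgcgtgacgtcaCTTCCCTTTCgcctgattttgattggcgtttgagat
Rpl22l1 (chr3:28805468-28805527, plus strand): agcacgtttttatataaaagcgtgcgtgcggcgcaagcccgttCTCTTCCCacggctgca
Rpl22 (chr4:152324396-152324455, plus strand): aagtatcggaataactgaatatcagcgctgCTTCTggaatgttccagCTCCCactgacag
Rps15a (chr7:118116128-118116187, minus strand): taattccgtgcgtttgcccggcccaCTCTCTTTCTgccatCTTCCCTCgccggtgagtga
Rpl12 (chr2:32961672-32961731, plus strand): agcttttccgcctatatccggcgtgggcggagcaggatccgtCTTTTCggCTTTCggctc
Rpl7l1 (chr17:46782637-46782696, minus strand): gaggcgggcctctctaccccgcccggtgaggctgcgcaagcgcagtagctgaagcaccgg
Each of these members but Rpl7l1 had at least 1 such run within 20 bases of the start shown. Rpl22 has another annotated start in the table, with none within 20 bases.

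Each library held 7553683 to 14426034 counts. Between libraries of the same group the counts varied by 1.10 to 1.18 times the binomial sampling variance (1.38 to 1.94 times over the members alone), against 3.48 to 15.5 times between lines within a state. The pair was therefore summed and taken as 1 sample, giving 12 samples (18017598 to 25160294 counts), 1 for each line in each state. Fold changes below are log2 values ± SE of an additive model of line and state. Their p-values come from edgeR's quasi-likelihood test with Benjamini-Hochberg adjustment over 15220 genes and tell how evenly the gap between lines came back in the 3 states (or that between states in the 4 lines). They do not measure the spread between independent lines. Levels are CPM of single samples scaled by TMM, a method that sets samples on a common scale through the bulk of their genes, and they have no replicate error. Pluripotency markers were expressed in every library (11 genes, together 4418 to 8330.2 CPM). Markers of the feeder fibroblasts (16 genes, together 1529 to 2150 CPM at 3i, 573 to 778 at day 1 and 323 to 448 at day 2) were present as well. Lum was at 0 counts in 3 EB samples and no other feeder marker was at 0 in a summed sample.

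The members together took the largest share of counts in f/f at 3i, 8.05% (Wilson 95% interval 8.04% to 8.06%), and the smallest in KO+N-KR at day 1, 6.05% (6.04% to 6.06%; the intervals cover counting error only). On the TMM scale their summed level was 79046, 77673 and 78498 CPM over the 3 states (3i, day 1, day 2) of f/f. It was 67887, 67734 and 74490 CPM in KO, 66479, 65411 and 73539 CPM in KO+WT, and 68622, 61605 and 73039 CPM in KO+N-KR. On this scale all 9 samples of the tamoxifen-treated lines lay below the 3 f/f samples. In the treated lines the day 2 samples were the highest of each line, while f/f differed little between its states. Shares of counts gave another order: f/f was at 8.05%, 7.28% and 7.70% over the 3 states. KO (7.69%) and KO+WT (7.43%) at day 2 were above f/f at day 1.

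**Figure D1:**
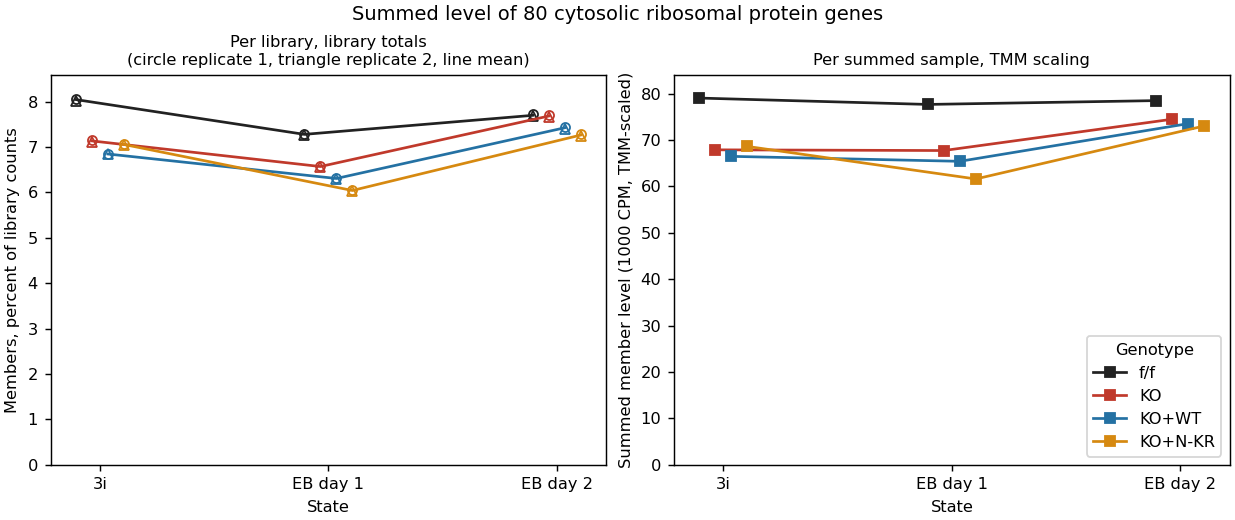
Summed level of the 80 ribosomal protein genes by state. The left panel plots percent of library counts (circles and triangles are the replicate 1 and 2 libraries, lines their mean) and the right panel the summed TMM-scaled level in units of 1000 CPM, 1 square per summed sample. In the right panel f/f lies between 77673 and 79046 CPM and the other lines between 61605 and 74490 CPM.

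Loss of Eed was compared through KO and f/f. Ribosomal protein RNA was lower in KO: 23 of 80 members fell, 12 of the large and 11 of the small subunit, where 4.32% of all tested genes fell, and 9.33% of the 4353 tested genes at 50 CPM or more. The median log2 fold change of the members was -0.17, against 0.00 for all tested genes, and 79 of 80 members had a value below 0. Both subunits had a median of -0.17. In bulk RNA, fewer cells of a type and less RNA per cell cannot be told apart here. Counted sample by sample, 69 members were lower in KO in all 3 states (24.7% of all genes were), and for 41 members all 3 KO samples lay below all 3 f/f samples (3.57% of all genes).

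Among the members that fell most was Rps28, a small-subunit protein near the exit of the mRNA channel. Its level was 567, 557 and 532 CPM over the 3 states (3i, day 1, day 2) of f/f, 458, 440.2 and 481 CPM in KO, 456, 447 and 484 CPM in KO+WT and 511, 415 and 487 CPM in KO+N-KR. The 3 f/f samples were the highest of the 12, and the fold change in KO was -0.27 ± 0.06, adjusted p = 0.0251. Rps14, another small-subunit protein, stood at 975, 1063 and 930.4 CPM over the 3 states (3i, day 1, day 2) of f/f, 793, 841 and 879.5 CPM in KO, 810.0, 798 and 884 CPM in KO+WT and 861, 762 and 874 CPM in KO+N-KR. Its KO and f/f samples did not overlap (-0.24 ± 0.07, adjusted p = 0.044). Rpl13, of the large subunit, stood at 1761, 1670.3 and 1653 CPM in f/f and 1444, 1360.3 and 1499.8 CPM in KO, again without overlap (-0.24 ± 0.06, adjusted p = 0.0323).

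The difference was not of one size in the 3 states. The median over members of KO minus f/f was -0.23 at 3i, -0.20 at day 1 and -0.07 at day 2, with 79, 79 and 70 of 80 members below 0. With 1 sample per line and state, the difference between states was not tested. The count of fallen members rested on the scaling and on single states: 2 fell with library totals alone (1073 of all genes then rose and 323 fell, against 678 and 657 with TMM), 1 without 3i, 14 without replicate 1, 0 without day 1 (where no gene of any kind passed, with 24 members and 2272 genes at an unadjusted p under 0.05) and 20 without day 2. The members' median stood 0.17 below that of all genes on the log2 scale with TMM, DESeq2 size factors or library totals alone. Scaling shifts all genes of a sample alike, so this gap had to be equal in these settings and is no check of them. Feeder markers summed to 1529 to 1545 CPM in f/f and 1618 to 1650 CPM in KO at 3i, and 13 of 15 tested had a value above 0 in KO (median 0.30, 0 passed the test). Their part in the members' difference was not tested.

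The rescue lines, in which EED was put back, were compared with f/f and with KO. In KO+WT ribosomal protein RNA was below f/f: 43 fell, 22 of the large and 21 of the small subunit (5.17% of all genes fell, and 9.46% of those at 50 CPM or more). The median was -0.19, and 78 members were lower in all 3 states (22.1% of all genes). For 52 members all 3 KO+WT samples lay below all 3 f/f samples (4.50% of all genes). By state the median was -0.24 at 3i, -0.23 at day 1 and -0.08 at day 2. This count too rested on single states, with 4 fallen members without 3i, 2 without day 1 and 67 without day 2, and 23 with library totals alone (764 of all genes then rose and 635 fell, against 556 and 787 with TMM). KO+N-KR, read against f/f sample by sample, had medians of -0.20, -0.32 and -0.08, and 73 members were lower in all 3 states (20.7% of all genes). Feeder markers were higher in KO+WT than in f/f (10 of 15 rose, median 0.81, where 3.65% of all genes rose, and 3.24% of those at 50 CPM or more), summing to 2097 to 2150 CPM at 3i, and their part was not tested.

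Against KO, only a few members differed in KO+WT. The median was -0.02, and 4 members fell (8.73% of all genes did, and 9.69% of those at 50 CPM or more), among them Rpl13 (-0.38 ± 0.06, adjusted p = 0.00153), Rpl22l1 (-0.36 ± 0.08, adjusted p = 0.012) and Rps27l (-0.19 ± 0.06, adjusted p = 0.0404). Against f/f the fold change was -0.62 for Rpl13 and -0.47 for Rpl22l1. For both genes the 6 rescue samples all lay below all 6 samples of f/f and KO, which 1.14% of all genes did. Without day 1 the count was 2. Feeder markers moved here as well, with 7 of 15 risen in KO+WT against KO (median 0.51), where 7.10% of all genes rose, and 10.5% of those at 50 CPM or more.

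Rpl13, a large-subunit protein, stood in the rescue lines at 1139, 1005 and 1170.4 CPM (KO+WT) and 1186, 923 and 1165 CPM (KO+N-KR), with KO between them and f/f in every state. Leaving out any 1 state kept it past the threshold in KO+WT against KO, with an adjusted p of 0.0423 without day 1.

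Rpl13 lies on chromosome 8 (RefSeq, GRCm38), and that chromosome as a whole was lower in both rescue lines. The 792 tested genes of chromosome 8 that are no members had a median log2 fold change of -0.37 in KO+WT against KO, with medians of -0.03 to 0.06 on the 19 other chromosomes. Of them, 718 (90.7%) were below 0 and 441 (55.7%) fell, against 6.14% of the tested genes on other chromosomes, members included. Against f/f the median was -0.40 and 444 (56.1%) fell, against 2.37% elsewhere. The median deviation of chromosome 8 genes from their own mean was 0.20 in all 3 f/f samples, 0.18 in all 3 KO samples, and between -0.21 and -0.16 in the 6 rescue samples. The part of this shift in the values of Rpl13 was not tested. Rpl22l1 lies on chromosome 3 and Rps27l on chromosome 9.

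**Figure D2:**
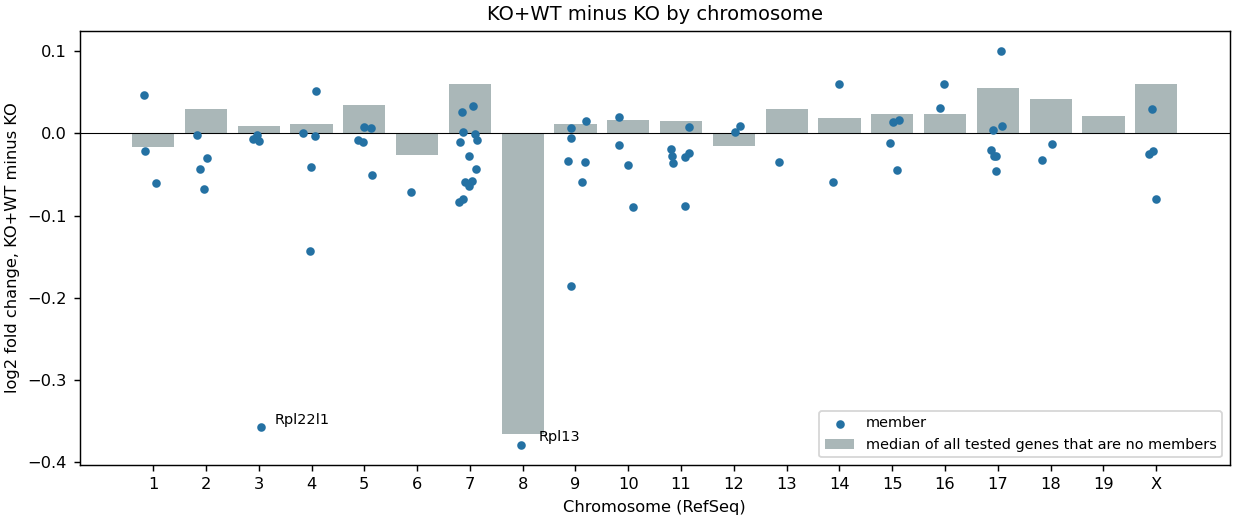
Fold change of KO+WT against KO by chromosome (log2, edgeR over 12 samples). Grey bars are the median of all tested genes that are no members, points are 78 of the 80 members. Chromosome 8 has a median of -0.37, near Rpl13 (-0.38), while Rpl22l1 (-0.36) lies on a chromosome whose median is near 0.

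The N-KR and wild-type forms of EED were compared through KO+N-KR and KO+WT, and no member passed the test. By edgeR 0 of 80 were called in either direction, 0 had an unadjusted p under 0.05, and DESeq2 called 0 too. Across all genes 0.296% rose and 0.256% fell (0.414% and 0.115% of those at 50 CPM or more). Fold changes ran from -0.17 (Rpl22l1, adjusted p = 0.737) to 0.07, and the median was -0.01. By state the median was 0.05 at 3i, -0.09 at day 1 and -0.01 at day 2, with 15, 79 and 48 members below 0. The day 1 value goes with the lowest summed level of the 12 samples, 61605 CPM in KO+N-KR, and was not tested against the other states. Feeder markers had 14 of 15 values below 0 in KO+N-KR against KO+WT (median -0.42, 0 passed the test). Their part in the members' values was not tested.

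Some members are paralogs of other members. They were taken by symbol, and which of their proteins a ribosome holds was not tested. Rpl22 and Rpl22l1 encode exchangeable proteins of the large subunit. Rpl22l1 was at 242, 211 and 189 CPM over the 3 states (3i, day 1, day 2) of f/f, 193, 179 and 220.2 CPM in KO, 164, 147 and 151 CPM in KO+WT and 143, 125 and 145 CPM in KO+N-KR. Its lowest values were those of KO+N-KR and its highest that of f/f at 3i. In KO the highest value was that of day 2, above f/f of the same day, while f/f was lowest then. The ratio of Rpl22 to Rpl22l1 in CPM was 2.48 to 3.45 in f/f, 2.62 to 3.00 in KO, 3.17 to 4.24 in KO+WT and 3.68 to 4.50 in KO+N-KR. The fall of Rpl22l1 against KO was lost without day 1 (-0.40, adjusted p = 0.122).

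Rps27l, a paralog of Rps27 that is known as a p53 target, was at 195, 199 and 201 CPM over the 3 states (3i, day 1, day 2) of f/f, 191, 202 and 206 CPM in KO, 161, 176 and 189.7 CPM in KO+WT and 159, 179 and 197 CPM in KO+N-KR. Its KO and f/f values overlapped (0.01 ± 0.06, adjusted p = 0.953), while Rps27 fell in KO (-0.20 ± 0.05, adjusted p = 0.0402). The call for Rps27l in KO+WT against KO was lost without replicate 1 or replicate 2 and without each state (adjusted p of 0.052 to 0.326). Rpl7l1, a paralog of Rpl7, was the member with the highest fold change of KO+WT against f/f (0.07 ± 0.07, adjusted p = 0.603), which did not pass the test.

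**Figure D3:**
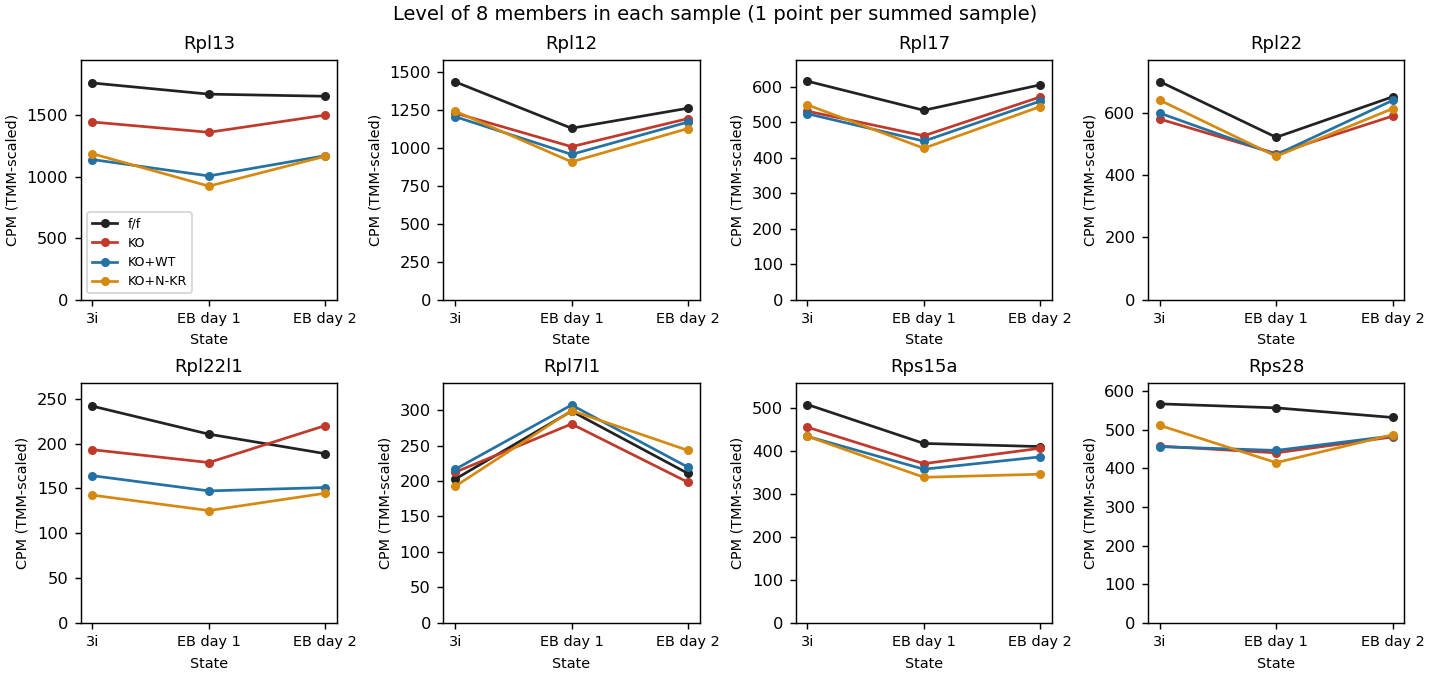
Level of 8 members in each summed sample, in TMM-scaled CPM from 0, by state and coloured by line. Rpl13 is lower in both rescue lines in every state, Rpl22 dips and Rpl7l1 peaks at day 1 in all 4 lines, and Rps28 is highest in f/f.

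EB formation was followed next, from 3i to day 1. The members changed little as a class at a time when most abundant genes changed: 5 rose (3 large, 2 small) and 19 fell (14 large, 5 small), where 32.4% of all tested genes rose and 33.2% fell, and 48.9% and 25.4% of those at 50 CPM or more. Their median was -0.05. By line the median was -0.02 in f/f, 0.02 in KO, -0.01 in KO+WT and -0.17 in KO+N-KR. In all 4 lines 34 members were lower and 10 higher (36.0% and 36.2% of all genes). Scaling mattered for this step: library totals alone moved the median of all genes from -0.01 to -0.11, and then 2 members rose and 48 fell. Among all genes 4007 then rose and 6061 fell (4938 and 5046 with TMM). The count of risen members was also 3 without KO and 2 without KO+WT. Relative to the median of all genes the members stood at -0.04 with TMM and with library totals alone, which scaling cannot change.

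Single members moved in opposite directions at day 1. Rpl7l1 was at 203, 212, 217 and 192 CPM at 3i in f/f, KO, KO+WT and KO+N-KR, 299, 281, 307 and 299 CPM at day 1 and 211, 198, 219 and 243 CPM at day 2. All 4 day 1 samples were above all 8 others, and it rose from 3i to day 1 (0.52 ± 0.06, adjusted p = 4.22e-06) and fell from day 1 to day 2 (-0.45 ± 0.06, adjusted p = 3.62e-05). Rpl7 itself did not pass at day 1 (0.01 ± 0.04, adjusted p = 0.795), so that the ratio of Rpl7 to Rpl7l1 in CPM went from 5.73 to 7.01 at 3i to 3.94 to 4.75 at day 1. Rpl22 did the reverse, at 701, 581, 600.0 and 642 CPM at 3i in f/f, KO, KO+WT and KO+N-KR, 522, 469, 466 and 461 CPM at day 1 and 652, 590.4, 641 and 614 CPM at day 2. All 4 day 1 samples were the lowest, with -0.39 ± 0.04, adjusted p = 4.28e-06 at day 1 and 0.38 ± 0.04, adjusted p = 1.25e-05 from day 1 to day 2.

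Rpl41, the smallest ribosomal protein, rose at day 1 (0.20 ± 0.06, adjusted p = 0.013), a call that was lost with library totals alone (0.10, adjusted p = 0.17) and without KO+WT (0.16, adjusted p = 0.0933). Rpl12, at the base of the stalk that binds translation factors, fell (-0.35 ± 0.04, adjusted p = 6.53e-06) from 1434, 1229, 1205 and 1242 CPM in f/f, KO, KO+WT and KO+N-KR to 1129, 1007, 956 and 908 CPM. Rps15a, a small-subunit protein, fell at day 1 (-0.30 ± 0.04, adjusted p = 3.84e-05) and remained lower at day 2 against 3i (-0.24 ± 0.04, adjusted p = 0.000309), at 508, 455, 434 and 434 CPM at 3i in f/f, KO, KO+WT and KO+N-KR, 417, 370.4, 357 and 339 CPM at day 1 and 410.1, 406, 386 and 346 CPM at day 2.

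Between day 1 and day 2 ribosomal protein RNA rose: 51 members rose, 32 of the large and 19 of the small subunit, and 1 fell, Rpl7l1. Of all tested genes 28.2% rose and 27.2% fell, and of those at 50 CPM or more 17.6% rose and 42.3% fell. The median was 0.15, and 47 members were higher in all 4 lines (32.6% of all genes). By line the median was 0.01 in f/f, 0.14 in KO, 0.17 in KO+WT and 0.25 in KO+N-KR, with 47, 75, 76 and 79 of 80 members above 0. The difference between lines was not tested. Besides Rpl22, among the largest rises was that of Rpl17 at the exit of the peptide tunnel (0.29 ± 0.04, adjusted p = 0.000104). Rpl17 was at 616, 531, 524 and 549 CPM at 3i in f/f, KO, KO+WT and KO+N-KR, 534, 462, 447 and 427 CPM at day 1 and 605, 571, 559.6 and 544 CPM at day 2, with every day 1 value below the 3i and day 2 values of its own line.

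Over both steps, from 3i to day 2, 36 members rose (19 large, 17 small) and 2 fell, Rps15a and Rpl12, where 33.0% of all genes rose and 30.5% fell (39.5% and 29.3% of those at 50 CPM or more). The median was 0.10, and 40 members were higher in all 4 lines (34.6% of all genes). By line the median was 0.00 in f/f, 0.14 in KO, 0.16 in KO+WT and 0.10 in KO+N-KR. Of 80 members 41, 75, 76 and 67 were above 0 in these lines. The difference between lines was not tested. Among the largest rises were those of Rpl41 (0.23 ± 0.06, adjusted p = 0.00581) and Rps26, a small-subunit protein at the mRNA exit (0.21 ± 0.05, adjusted p = 0.00166). The fall of Rpl12 (-0.10 ± 0.04, adjusted p = 0.0461) was lost without each line in turn, which left Rps15a as the 1 fallen member. The count of rises was 15 without KO+WT, 21 without KO, 23 with library totals alone and 47 without f/f. Against 3i, 12 of 15 feeder markers fell at day 1 (median -1.68) and 12 at day 2, with 2 risen. Pluripotency markers fell against 3i as well (7 of 11 fell and 3 rose at day 1, 8 fell and 2 rose at day 2). From day 1 to day 2, 7 feeder markers rose and 4 fell (median 0.31), where 28.2% of all genes rose and 27.2% fell. Of the pluripotency markers 9 fell and 1 rose in that step. Col1a1, a fibroblast collagen, went from 207 to 352 CPM at 3i to 18.1 to 34.2 CPM at day 1. The part of the feeder cells in these values was not tested.

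**Figure D4:**
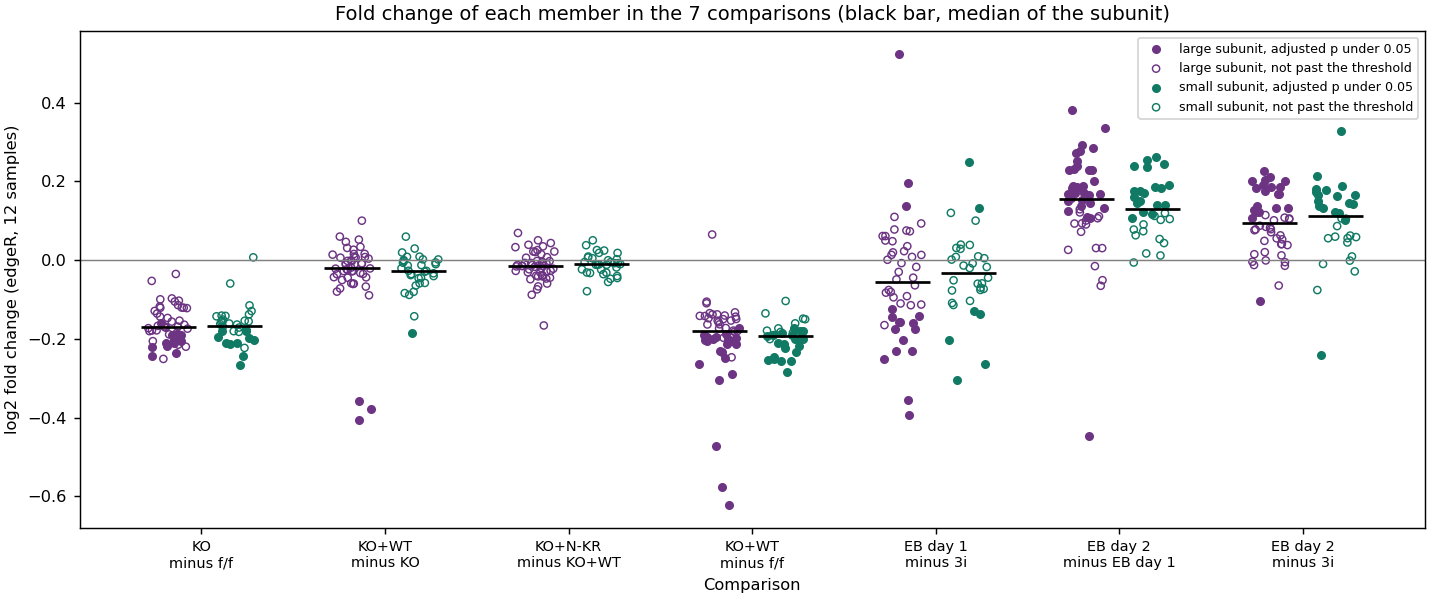
Fold change of each member in the 7 comparisons (log2, edgeR over 12 samples). Large-subunit genes are purple and small-subunit genes green, filled points passed an adjusted p of 0.05, and black bars are subunit medians. In each comparison the subunits have medians within 0.03 of each other, at -0.17 for both in KO against f/f, and at 0.15 (large) and 0.13 (small) from day 1 to day 2.

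The members kept a narrow range. Over the 12 samples the median range of a member (highest over lowest level) was 0.40 on the log2 scale, or 1.32-fold, against 0.63 for all tested genes at 50 CPM or more, of which 19.5% had a range at or below 0.40. Among the widest ranges in the large subunit was that of Rpl22l1 (0.95), and the widest in the small subunit were those of Rps20 (0.62), a protein of its head, and Rps15a (0.59). Rps20 was at 984, 894 and 874 CPM over the 3 states (3i, day 1, day 2) of f/f, 840.1, 769 and 891 CPM in KO, 780.0, 691 and 795 CPM in KO+WT and 832, 641 and 799.5 CPM in KO+N-KR, lowest in KO+N-KR at day 1. The narrowest were Rpl10 (0.25), which joins late in large-subunit maturation, and Rpl24 (0.27), which bridges the subunits, with Rps25 (0.25) and Rpsa (0.28) in the small subunit. Rpl10 was at 846, 874 and 886 CPM over the 3 states (3i, day 1, day 2) of f/f, 800.2, 834 and 880.3 CPM in KO, 751, 793 and 836 CPM in KO+WT and 745, 775 and 839 CPM in KO+N-KR, so that all its values lay between 745.0 and 886 CPM. The lowest sample was KO+N-KR at day 1 for 6 of these 7 members, and KO+N-KR at 3i for Rpl10.

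**Figure D5:**
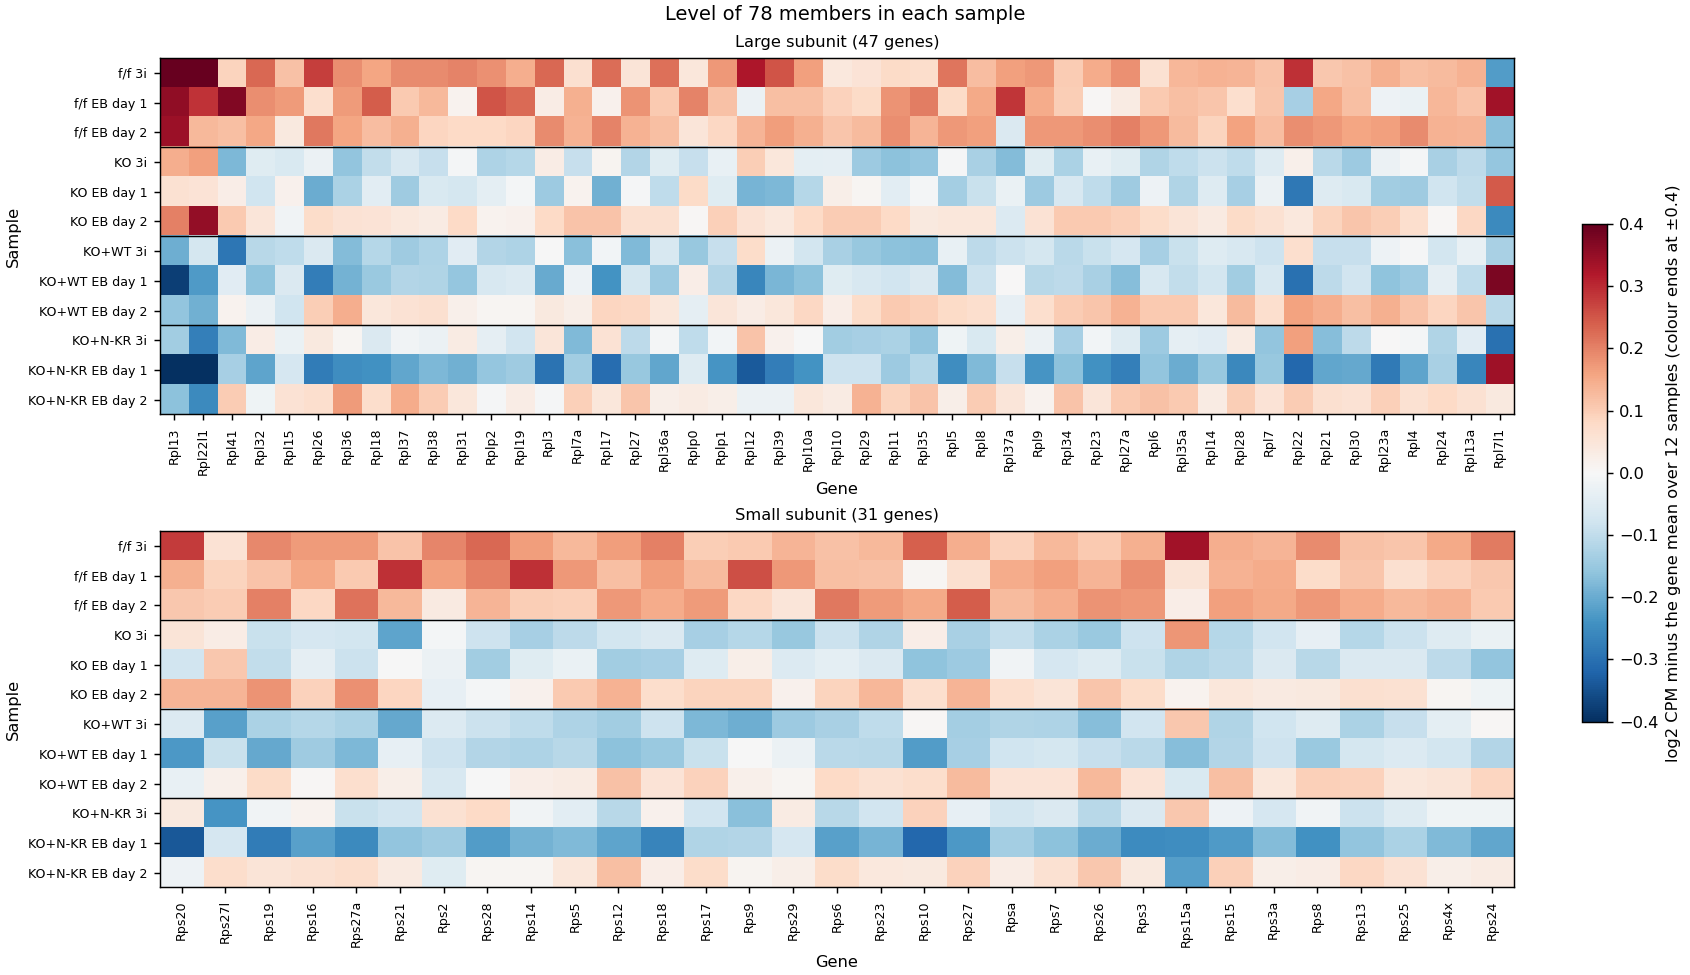
Level of 78 of the 80 members in each of the 12 summed samples, as log2 CPM minus the gene's mean over the samples (colour scale ends at 0.4 either way), large subunit above and small subunit below. In the f/f rows 74 to 77 of them are above their mean, in KO+N-KR at day 1 only Rpl7l1 is, and Rpl7l1 peaks at day 1 in every line.

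Large and small subunit genes moved together. The ratio of their summed CPM ran from 1.48 to 1.52 over the 12 samples (0.56 to 0.61 on the log2 scale). It was lowest at day 1 in each line, 1.48 in f/f, 1.49 in KO, 1.48 in KO+WT and 1.48 in KO+N-KR. CPM is not scaled for gene length, so this ratio describes changes between samples and not the number of molecules of each subunit.

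Related gene lists were counted beside the members. For genes at 50 CPM or more, the shares that passed were 9.33% lower in KO against f/f, 48.9% higher and 25.4% lower at day 1, 42.3% lower from day 1 to day 2, and 39.5% higher from 3i to day 2. Of 5 ribosomal protein genes with other names 3 fell in KO, among them Fau (-0.24) and Gnb2l1, which encodes RACK1 (-0.18). Of 21 translation genes known for 5'TOP mRNAs, 6 fell in KO, among them the initiation factor subunits Eif3k (-0.28) and Eif3l (-0.20) and Btf3 (-0.18), with a median of -0.10. At day 1, 11 of them rose and 7 fell, with Gas5, a host gene of small nucleolar RNAs, at -1.30 ± 0.05, adjusted p = 4.81e-10, Vim at -1.25 and Eif3l at 0.51. These day 1 counts lie near the shares of abundant genes just given. From 3i to day 2, 12 of the 21 rose and 3 fell.

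Ribosome biogenesis factors build the subunits in the nucleolus. Of 34 tested, 33 rose at day 1 (median 0.48), 19 fell and 1 rose from day 1 to day 2, and 30 were higher at day 2 than at 3i. Eif6, which keeps the large subunit from joining too early, was at 90.6, 83.5, 87.6 and 88.2 CPM at 3i in f/f, KO, KO+WT and KO+N-KR, 179, 161, 173 and 173 CPM at day 1 and 99.2, 100.2, 111 and 132 CPM at day 2. Its 4 day 1 values were the highest (0.97 ± 0.07, adjusted p = 4.16e-08), as were those of Bop1 (0.92), a factor of large-subunit rRNA processing. Rrn3, a partner of RNA polymerase I, rose by a similar size (0.95) and was at 332 to 383 CPM at day 2. In KO against f/f 2 of the 34 fell, Sbds (-0.29) and Dkc1 (-0.18), a share near the 4.32% of all genes that fell.

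Mitochondrial ribosomal proteins had 60 of 76 rise and 1 fall at day 1 (median 0.28), where 32.4% of all genes rose and 33.2% fell. From day 1 to day 2, 47 fell (median -0.24), where 27.2% of all genes fell and 51 cytosolic members rose. Mrpl20 rose at day 1 (0.88 ± 0.08, adjusted p = 3.17e-07), and Mrpl36 fell from day 1 to day 2 (-0.73 ± 0.07, adjusted p = 2.54e-06). In KO against f/f 9 of 76 fell (median -0.14), with Mrps16 at -0.36. Of all genes 4.32% fell there, and 9.33% of those at 50 CPM or more. Of 16 genes of MYC and mTOR regulation, 11 rose and 2 fell at day 1, where 32.4% of all genes rose and 33.2% fell. Myc, which drives growth genes, was at 1.63, 3.01, 4.9 and 3.03 CPM at 3i in f/f, KO, KO+WT and KO+N-KR, 76.7, 69.9, 68.8 and 73.7 CPM at day 1 and 20.5, 16.8, 18.5 and 25.5 CPM at day 2, 4.56 ± 0.19, adjusted p = 5.33e-10 at day 1. Mycn rose at day 1 (0.74) and in KO against f/f (0.35 ± 0.09, adjusted p = 0.0397). Of 14 p53 target genes, 2 rose in KO against f/f, Btg2 (0.57) and Pmaip1 (0.32), where 4.45% of all genes rose, and 3.19% of those at 50 CPM or more. At day 1, 6 of the 14 rose and 6 fell, where 32.4% of all genes rose and 33.2% fell.

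Ribosomal protein genes have many near-identical processed copies in the genome, and how the authors counted reads that match several places is not given in the sources used here. Of 79 members with a principal transcript in GENCODE M21 (GRCm38), a median of 60.0% of the 50-base windows also occurred in a transcript of another gene, and 51 members had over 50%. A separate list of gene symbols names 298 pseudogenes of 60 members. Shared windows made up 80.3% for Rpl13, 75.7% for Rps28, 65.6% for Rpl22l1, 24.5% for Rpl22 and 12.2% for Rpl7l1. They made up 98.6% for Rps27 and 22.4% for Rps27l, so the contrast of these paralogs is exposed to this as well. Levels of single members are uncertain to that extent, and the ratios of CPM between members given above serve to compare samples and not the levels of the genes, since CPM is not scaled for length.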

How the data were processed

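The values are raw counts per gene symbol (23284 symbols) in a table that the authors deposited. Of its 30 columns, 24 matched the library names in the labels and 6 were not used. STAR 2.5.2b, DESeq2 and the build mm9 are named in the submitters' processing notes. How reads were counted (tool, strand, multi-mapping, annotation) is not given in the sources used here. The libraries of each group, numbered replicate 1 and 2, differed by little more than sampling noise and were summed. Counts were fitted with edgeR 4.0.16 in R 4.3.3 (TMM, filterByExpr, additive model of genotype and state, glmQLFTest, Benjamini-Hochberg, threshold 0.05, 6 residual degrees of freedom), after the script was tested on simulated data. Alternatives were library totals, DESeq2 1.42.0 size factors and Wald test, scaling without the members, no filter, unsummed libraries with and without a replicate block, only the groups compared, and leaving out each replicate, state or line. Values within a state compare single samples, without a test. The members and all gene lists were chosen with earlier results of these data known. Members named are the 3 with the largest rise and fall past the threshold in each comparison, the paralog pairs, those nearest the 50 CPM limit and those with the widest and narrowest ranges. Values of a few genes that these rules or lists name are not reported here, while counts and medians include them. The sample-by-sample values of KO+N-KR against f/f and the chromosome medians were added after seeing the data.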

Additional observations from a re-analysis of the deposited data

Results flagged for a closer look

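A pair of members moved by at least 0.2 on the log2 scale in opposite directions under the same contrast. The size is that of the summed samples, and both libraries of each group had to agree in direction only. Rpl22l1, the paralog of Rpl22, stood below f/f in KO at 3i (-0.32) and above it at EB day 2 (0.22). Rpl41, which encodes the smallest ribosomal protein, was lower at day 2 than at day 1 in f/f (-0.25) and higher in KO+N-KR (0.23). Each value compares single summed samples, and the difference between the states or lines was not tested.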

How the results depend on the processing

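No fold change of a called member changed sign under any alternative run, but many calls were lost. Of 184 calls, 57 were lost with library totals alone, 50 with only the groups compared, 14 with scaling without the members, 7 with DESeq2 size factors, 7 without the filter on low counts and 5 with the DESeq2 Wald test. Of the 70 calls between lines, 66 were lost without day 1, 62 without 3i and 11 without day 2. Of the 114 calls between states, leaving out a line lost 1 (f/f) to 41 (KO+WT). Members fallen in KO against f/f (23) numbered 2 with library totals alone, 38 with the DESeq2 Wald test and 3 with only these groups, and 0 to 20 on leaving out a state or a replicate. Those fallen in KO+WT against f/f (43) numbered 23 with library totals alone and 27 with only these groups, and 2 to 67 on leaving out. In KO+WT against KO (4) leaving out gave 2 to 3. From 3i to day 1 (5 risen, 19 fallen) there were 2 risen and 48 fallen with library totals alone, 29 fallen without the filter and 8 risen with only these groups, and 2 to 6 risen on leaving out. From 3i to day 2 (36 risen, 2 fallen) there were 23 risen with library totals alone, and 23 risen and 1 fallen with only these groups, and 15 to 47 risen and 1 to 2 fallen on leaving out. The cause was not tested.

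No pairing of samples by replicate number was seen: over 66 pairs of groups the deviations of same-numbered libraries correlated at -0.03 to 0.04. These deviations are mostly counting noise, so a small effect shared by same-numbered libraries could be missed. The members' median log2 difference of replicate 1 minus replicate 2 ran from 0.0003 to 0.0115 over the groups. Fitting the 24 libraries with a replicate block gave 75 fallen in KO against f/f, 7 in KO+WT against KO, 79 in KO+WT against f/f, and 13 risen and 36 fallen from 3i to day 1. Without the block these counts were 75, 7, 79, 13 and 36, with 56 risen from 3i to day 2. In both fits libraries of 1 sample count as replicates, so their p-values measure noise near that of repeated sequencing. Each member averaged over 50 CPM, and each line gave 1 sample per state. The part of depth and of the number of lines in the counts of calls was not tested.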
